A study of Mus musculus with 9 samples.

Results

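The comparison was between the colon of germ-free mice, which are raised without any living microbe, and the colon of specific pathogen free (SPF) mice, which carry a normal gut flora without listed pathogens. It holds all cells of 2 germ-free and 2 SPF libraries of single-cell RNA sequencing that had at most 15% mitochondrial transcripts and at least 200 detected genes. These were 9342 cells, of which 4296 were germ-free and 5046 SPF, out of 31759 cells that passed the same filter in the 9 libraries of the series. Both groups came from wildtype male C57BL/6 mice of 7 to 8 weeks without treatment, and the germ-free state was the only difference the labels give. The labels describe the cells as CD11b+ cells of the colonic lamina propria, the layer of connective tissue and immune cells under the epithelium. The study describes its sort as CD45+CD11b+ cells and its SPF sample as a pool of several mice, and it does not describe the germ-free mice. The p-values below therefore measure the spread between these libraries, which may be in part technical. A further condition, 1 colon library of SPF mice given 4 antibiotics in the drinking water, is set beside some values as a description with no test.

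The gut flora is a constant source of microbial products for the immune cells of the colon. Monocytes from the blood enter the colon wall and mature there into resident macrophages, dendritic cells carry antigen to T cells, and B cells mature in germinal centres and become plasma cells that secrete IgA. In mice raised without microbes these tissues are known to be less developed, with smaller germinal centres and fewer IgA plasma cells. Interferons are signalling proteins that induce large sets of genes for defence and antigen display, with type I interferons made by many cells and interferon-gamma made by T cells and NK cells.

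The libraries held 2615 and 2431 kept cells for SPF 1 and 2 and 1450 and 2846 for germ-free 1 and 2, with 13630190 to 20702487 unique molecular identifiers (UMIs, counted transcript molecules) per library. Median depth was 5112 and 5141 UMIs per SPF cell and 4062.5 and 4223 per germ-free cell. Germ-free 1 stood apart, because 30.4% of its barcodes failed the cell filter against 5.20% to 17.9% in the others. Its summed erythroid markers reached 609 CPM (UMIs of a gene per 1000000 UMIs of the same sum) against at most 5.44 CPM elsewhere, and its summed epithelial markers reached 6579 CPM against 241 to 2790 CPM. The libraries numbered 1 held more epithelial and plasma cells and macrophages than those numbered 2 in both groups. Between 0 and 18 cell barcodes were shared by any pair of libraries. The part of these differences in the results was not tested, and counts of the main gene lists are also given without germ-free 1.

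The gene behind the sort did not mark all of the cells. Itgam, which encodes CD11b, was at 288 CPM in gated monocytes, 325 CPM in neutrophils, 206 CPM in resident macrophages and 695 CPM in eosinophils. It was at 14.6 CPM in B cells, 22.8 CPM in T cells, 7.44 CPM in type 1 dendritic cells and 13.3 CPM in fibroblasts, so that these classes carry little of the transcript the cells are labelled with. In library sums Itgam was at 123 and 114 CPM in SPF and 62.7 and 72.7 CPM in germ-free colon. Shares of cells below are shares of what the libraries hold, and a change in sort purity and a change in the tissue cannot be told apart. In the sums over whole libraries, fewer cells of a type and less RNA per cell cannot be told apart either.

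Monocytes were the class with the largest difference in share. Gated by at least 3 of 8 markers such as Ly6c2 and Ccr2, they made up 13.2% and 8.10% of the SPF cells and 1.66% and 2.35% of the germ-free cells. Both germ-free libraries lay below both SPF libraries, with a log2 fold change of the share of -2.40 ± 0.60 (SE, 2 libraries per group). This did not pass the correction over 16 classes (edgeR quasi-likelihood test, adjusted p = 0.192). With clusters of cells in place of the gates, monocytes were at 6.85% and 8.19% against 0.552% and 2.25%, since 166 of the 633 gated monocytes lay in clusters named as resident macrophages. The antibiotics library held 5.01% monocytes (exact 95% binomial interval 4.18% to 5.96%, which covers counting error only), between the groups. Resident macrophages, the cells monocytes mature into, were at 14.3% and 4.11% in SPF and 14.8% and 4.22% in germ-free colon, so that the libraries of 1 group differed far more than the groups did.

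Among the dendritic cells the classes went in different directions. Type 2 dendritic cells, which carry CD11b, were at 4.78% and 8.64% in SPF and 3.17% and 4.22% in germ-free colon. Mature dendritic cells, marked by Ccr7 and on their way to lymph nodes, were at 0.765% and 1.65% in SPF and 2.14% and 4.08% in germ-free colon. The libraries of the groups did not overlap for either class, the type 2 cells being lower (log2 fold change -0.86 ± 0.59, edgeR adjusted p = 0.680) and the mature cells higher (1.37 ± 0.70, adjusted p = 0.589) without microbes. Type 1 dendritic cells overlapped, with 1.49% and 4.69% against 2.55% and 2.11%.

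B and T cell shares followed the library number more than the group. B cells were at 6.62% and 16.2% in SPF and 7.79% and 24.4% in germ-free colon, and T cells at 7.80% and 10.7% against 8.69% and 11.7%. Plasma cells were at 8.26% and 2.02% against 3.10% and 0.492%, so that within each library number the germ-free library held fewer, although the groups overlapped (edgeR adjusted p = 0.680). Fibroblasts were at 2.72% in both SPF libraries and at 2.83% and 4.78% in the germ-free libraries (edgeR adjusted p = 0.879). Endothelial cells were at 0.191% and 0.0411% against 0.345% and 0.668%, few cells in every library (edgeR adjusted p = 0.562). For both of these stromal classes the germ-free libraries lay above the SPF libraries. Eosinophils, neutrophils, NK and innate lymphoid cells, epithelial cells and mast cells or basophils overlapped between the groups. No class passed the test (0% of 16) and 1 class, the monocytes, was under an unadjusted p of 0.05. A permutation of 2 against 2 libraries cannot give a 2-sided exact p below 0.333.

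**Figure D1:**
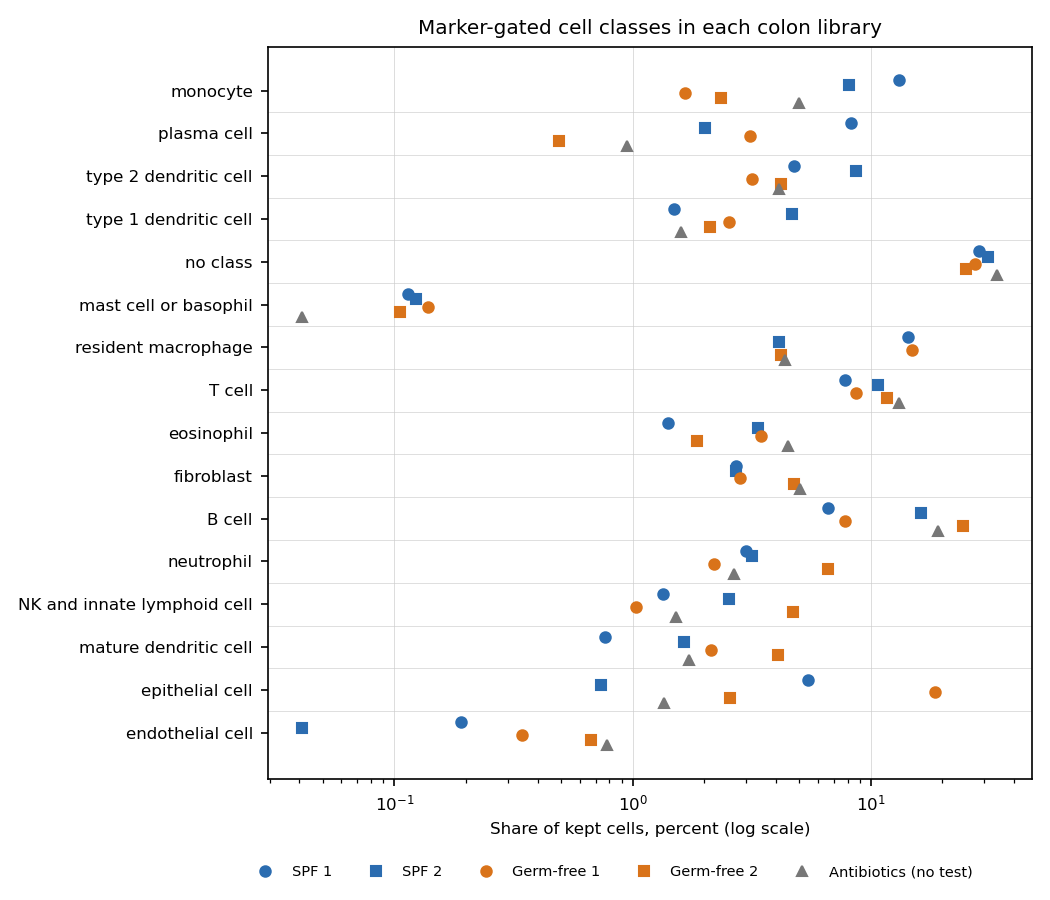
Share of kept cells, in percent on a log scale, of 15 marker-gated classes and the cells without a class in each colon library, with SPF in blue, germ-free in orange and the untested antibiotics library in grey. Monocytes at the top separate the groups most, with 13.2% and 8.10% in SPF and 1.66% and 2.35% in germ-free colon, whereas B cells and resident macrophages follow the library number.

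Summed over whole libraries, no gene passed the test between germ-free and SPF colon (0% of 14498 genes, edgeR quasi-likelihood test, adjusted over all genes). At an unadjusted p under 0.05, 421 genes stood out, 1.72% of the genes lower and 1.18% higher in germ-free colon, and DESeq2 called 17. Ctla4, the inhibitory receptor of activated and regulatory T cells, was at 135 and 133 CPM in SPF and 34.3 and 37.4 CPM in germ-free colon. The replicates of each group were close and far from the other group (log2 fold change -1.91 ± 0.23, edgeR adjusted p = 0.972), and DESeq2 called the gene with an adjusted p of 0.00151. The antibiotics library had 169 CPM, at the SPF side. Itgae, the CD103 integrin chain of mucosal T cells and dendritic cells, was at 69.6 and 79.6 CPM against 24.9 and 36.6 CPM (-1.29 ± 0.30). Psmb9 and Tap1, a subunit of the immunoproteasome and the peptide transporter of MHC class I, were lower by 1.01 ± 0.23 and 1.32 ± 0.32 on the log2 scale. Top2a, a gene of dividing cells, was at 83.6 and 79.0 CPM against 35 and 36.2 CPM. Nr1d1, a repressor of the circadian clock, went the other way, with 13.5 and 8.78 CPM in SPF and 30.3 and 33.7 CPM in germ-free colon.

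Of the gene lists, the interferon, cytotoxic and cell cycle lists had the most members lower in library sums. At an unadjusted p under 0.05, 6 of 22 type I interferon genes, 7 of 18 interferon-gamma genes, 4 of 12 cytotoxic genes, 4 of 15 cell cycle genes and 3 of 8 germinal centre genes were lower, and no member of these lists was higher. The median log2 fold changes were -1.10, -0.97, -1.04, -0.69 and -0.93, beside 0.03 over all genes tested. Without germ-free 1, the lower members were 0 of 22, 2 of 18, 1 of 12, 5 of 15 and 1 of 8, and 2 members of the type I list were higher. The medians of that fit, which has 1 germ-free library, were -0.90, -0.68, -0.54, -1.02 and -1.09. The lists for microbe sensing (23 measured), NF-kB feedback (13) and MHC class II (10) had no member past the unadjusted threshold in either direction. The same held for the lists of anti-inflammatory genes (16), type 3 immunity (11), type 2 immunity (11), the aryl hydrocarbon receptor pathway (6) and the early genes that tissue dissociation induces (20). Of the antimicrobial proteins 1 of 15 was lower and 2 were higher, and of the circadian clock genes 2 of 16 were higher. Without germ-free 1 these were 2 lower and 5 higher, and 1 higher, and 1 member of the type 2 immunity list was lower. Of the immunoglobulin constant chains 2 of 12 were lower, and 6 of 12 without germ-free 1.

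Within the gated classes, which compare cells that passed the same gate, genes of the interferon response were lower in germ-free colon in most classes. The make-up of several classes by cluster differed between libraries, and its part in these counts was not tested. The type I list holds genes such as Irf7, the transcription factor that amplifies the response, and Oasl2, a relative of the viral RNA sensors. At an unadjusted p under 0.05, its lower members were 10 of 20 measured in monocytes, 8 of 14 in fibroblasts, 8 of 21 in resident macrophages, 6 of 12 in B cells, 5 of 9 in neutrophils, 4 of 16 in T cells and 3 of 12 in type 1 dendritic cells. None of the list was higher in those classes. The medians were -0.97, -1.27, -0.59, -0.996, -1.29, -0.79 and -0.72 on the log2 scale, each beside a median between -0.04 and 0.01 over all genes of the class. Type 2 dendritic cells had 1 of 21 lower and 2 higher. Mature dendritic cells had 0 of 17 in either direction and a median of 0.29. Without germ-free 1, the lower members were 8 in monocytes, 10 in fibroblasts, 6 in macrophages, 5 in B cells, 7 in neutrophils, 5 in type 1 dendritic cells and 0 in T cells. The same fit had 2 members higher in macrophages, 1 in monocytes, 1 in T cells, 5 in type 2 and 2 in mature dendritic cells.

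The background differed by class, and the counts are read against it. Genes lower at an unadjusted p under 0.05 were 2.16% of 7215 in monocytes, 2.87% of 7257 in fibroblasts, 1.37% of 7943 in resident macrophages, 3.9% of 8144 in B cells, 2.06% of 2724 in neutrophils, 3.9% of 8332 in T cells, 2.23% of 7008 in type 1, 1.22% of 7924 in type 2 and 2.77% of 4580 in mature dendritic cells. Genes higher were 1.07%, 2.52%, 1.35%, 2.2%, 1.65%, 3.58%, 3.4%, 1.43% and 3.78% in the same order. After correction over all genes of the class, 0% passed in each of these 9 classes. The classes come from the same 4 libraries and are not independent of each other. These shares are of the fits with all 4 libraries. The fits without germ-free 1 tested more genes in each of these classes, such as 8641 in resident macrophages and 8621 in monocytes. Counts from those fits have another background, which is not given here, and are not to be read against the shares above.

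The interferon-gamma list, with genes for MHC class I peptide supply and for GTPases against intracellular microbes, had its highest count in fibroblasts. Its lower members were 11 of 16 in fibroblasts, with a median of -1.12, 6 of 16 in T cells, 4 of 15 in monocytes, 4 of 16 in resident macrophages, 3 of 16 in type 2 dendritic cells, 3 of 11 in B cells, 2 of 11 in type 1 dendritic cells, 2 of 7 in neutrophils and 0 of 11 in mature dendritic cells. The median in type 1 dendritic cells was 0.11, and -0.43 without germ-free 1. Cxcl10, a chemokine that draws T cells, was the only member higher at that threshold, in resident macrophages and in type 1 dendritic cells. In type 1 dendritic cells it was at 35.9 and 75.1 CPM in SPF and 170 and 119 CPM in germ-free colon (1.46 ± 0.35, edgeR adjusted p = 0.279). Without germ-free 1, the lower members were 9 in fibroblasts, 3 in T cells, 4 in monocytes, 2 in macrophages, 4 in type 2 dendritic cells, 4 in B cells, 3 in type 1 dendritic cells, 5 in neutrophils and 1 in mature dendritic cells, and Cxcl10 was no longer past the threshold in macrophages.

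B2m, the light chain of MHC class I, had a log2 fold change below 0 in all 11 comparisons, library sums included, from -1.48 in fibroblasts to -0.27 in B cells, and is named after its values were seen. Tap1 was below 0 in all 10 comparisons that measured it, from -1.49 to -0.73, and under the unadjusted threshold in 8.

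**Figure D2:**
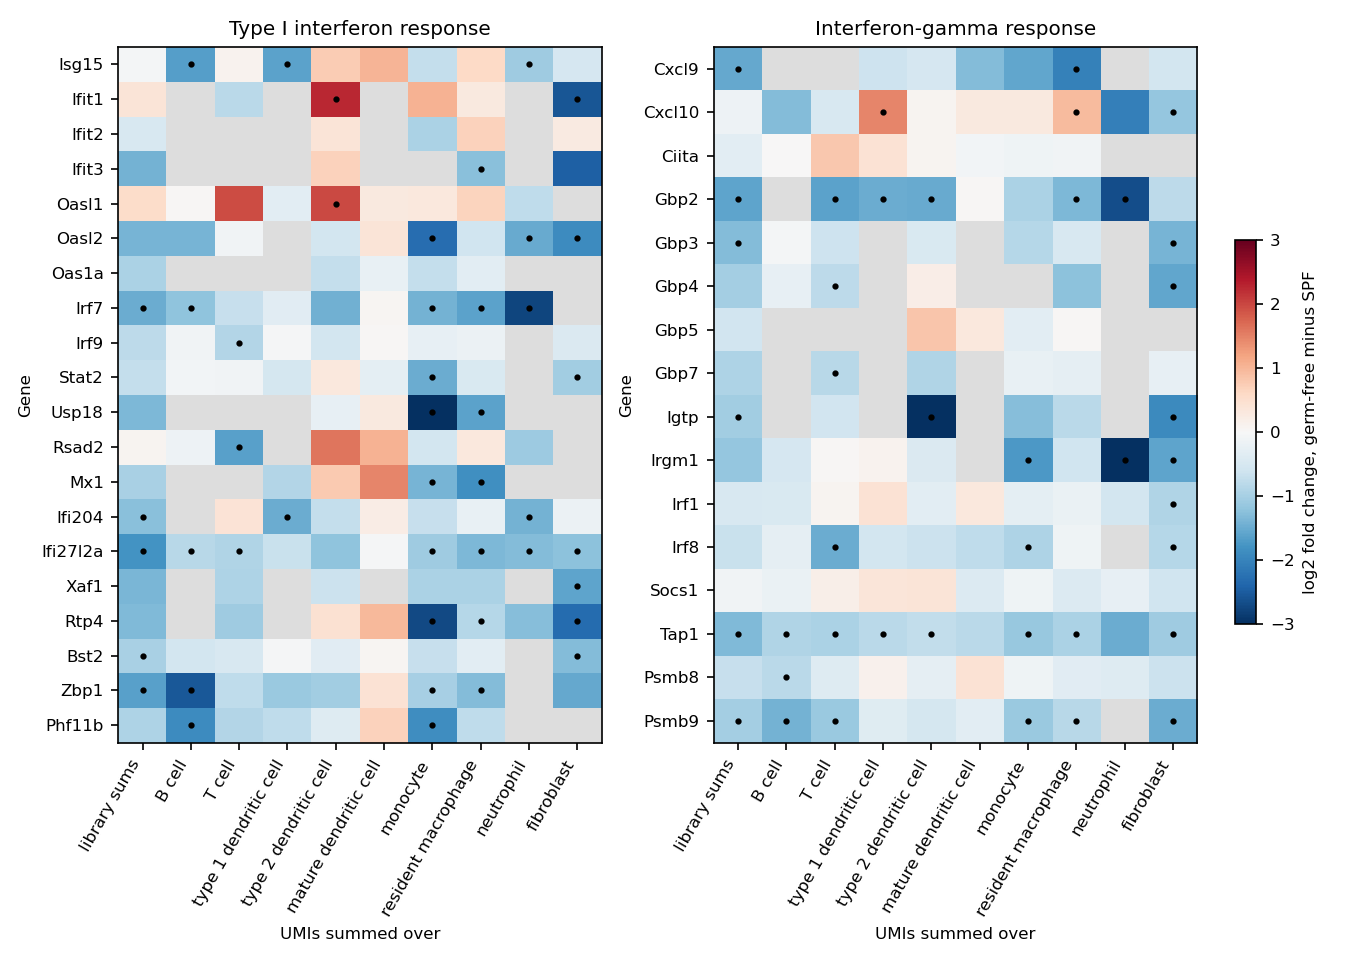
Log2 fold change, germ-free minus SPF, of genes of the 2 interferon lists (rows, measured in at least 4 comparisons) in library sums and in 9 gated classes (columns), with blue lower and red higher in germ-free colon, the scale ending at 3 in each direction. Grey marks genes below the count filter and black dots an unadjusted p under 0.05. Tap1 is blue in every column that measured it, and the mature dendritic cells hold no dot.

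Interferon factors bind a DNA element, the interferon-stimulated response element, in the promoters of many of these genes. Its core was searched as GAAA, any 2 bases and GAAA again, on both strands, in the 250 bases before each start site (RefSeq, build GRCm38.p6). It was found before 2.98% of 32851 starts, in 8 of 15 promoters of the type I list (53.3%) and in 9 of 15 of the interferon-gamma list (60%), the other list genes having no entry in the table. The windows of Igtp, Isg15, Ifit1, Bst2 and Cxcl10 are shown, since these members differed in how they behaved between classes, each read 5′ to 3′ on the gene's strand with 1 match in capitals. They lie at chr11:58199502-58199551 (Igtp, + strand), chr4:156200855-156200904 (Isg15, - strand), chr19:34640784-34640833 (Ifit1, + strand), chr8:71537567-71537616 (Bst2, - strand) and chr5:92349073-92349122 (Cxcl10, - strand). In Ifit1 the match is on the opposite strand.
Igtp: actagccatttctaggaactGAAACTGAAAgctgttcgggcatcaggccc
Isg15: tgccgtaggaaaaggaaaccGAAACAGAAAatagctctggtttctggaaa
Ifit1: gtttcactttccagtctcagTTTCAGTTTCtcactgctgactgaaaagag
Bst2: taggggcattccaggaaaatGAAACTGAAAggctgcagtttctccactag
Cxcl10: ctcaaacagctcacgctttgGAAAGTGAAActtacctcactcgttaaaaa
A match describes these letters and is no evidence of binding. The genes that carry it did not share 1 direction. Isg15 was at 193 and 322 CPM in SPF and 316 and 426 CPM in germ-free resident macrophages but at 25.6 and 24.4 CPM against 10.3 and 6.38 CPM in B cells. Ifit1 was at 83.0 and 20.8 CPM in SPF fibroblasts and 8.14 and 7.69 CPM in germ-free fibroblasts, on 2 and 7 UMIs, but at 8.59 and 15.7 CPM against 12.1 and 90.3 CPM in type 2 dendritic cells. Bst2, which tethers budding virus, was at 259 and 174 CPM against 73.2 and 90.1 CPM in fibroblasts and overlapped in resident macrophages, with 340 and 293 CPM against 187 and 297 CPM.

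T cells showed the most genes under the unadjusted threshold of any class, with 623 of 8332, and none after correction, whereas DESeq2 called 27. Ifng, which encodes interferon-gamma, was at 198 and 241 CPM in SPF and 34.6 and 36.1 CPM in germ-free T cells. Each germ-free library was far below each SPF library, with a log2 fold change of -2.48 ± 0.27 (edgeR adjusted p = 0.411), and DESeq2 called it with an adjusted p of 1.4e-05. The antibiotics library had 141 CPM, nearer to SPF. The 12 cytotoxic genes were all below 0 with a median of -1.64, and 5 were under the unadjusted threshold. Fasl, the death ligand of killer cells, was at 115 and 108 CPM against 33.0 and 28.8 CPM, and Gzmk, a granzyme, had 75 and 49 UMIs in the SPF libraries and 1 and 3 UMIs in the germ-free libraries. Tbx21, the T-bet factor that directs type 1 T cells, was at 133 and 72.7 CPM against 39.3 and 18.8 CPM. The groups did not overlap for these 3 genes. Without germ-free 1, 9 of the 12 cytotoxic genes were lower. Gzma and Gzmb followed the library number instead, with Gzma at 9770 and 583 CPM in SPF and 1747 and 12.03 CPM in germ-free T cells. The summed NK cell markers in the class were at 10120 and 764 CPM in SPF and 2208 and 131 CPM in germ-free colon, none of 8 being at 0 in all libraries. Gzma is among these 8 and was most of the sum in every library but germ-free 2. The sum is therefore not a measure of NK cell RNA alone, and its part in the cytotoxic genes was not tested.

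Genes of helper and regulatory T cells differed among themselves. Ctla4 was at 892 and 1077 CPM in SPF and 187 and 287 CPM in germ-free T cells (-1.90 ± 0.28, edgeR adjusted p = 0.411, DESeq2 adjusted p = 7.63e-05), with 993 CPM in the antibiotics library. Il17a, the cytokine of type 17 T cells, was at 47.7 and 148 CPM in SPF and 0 and 25.1 CPM in germ-free T cells, where a count of 0 in germ-free 1 allows up to 4.71 CPM. The antibiotics library, at 178 CPM, lay above both SPF libraries. Foxp3, the factor of regulatory T cells, overlapped, with 34.0 and 57.4 CPM against 14.1 and 69.0 CPM. Ikzf4, a partner of Foxp3, and Klrg1 were the 2 of 11 regulatory list members higher at the unadjusted threshold (1 without germ-free 1), and Ctla4 the 1 lower.

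Genes of naive and recirculating T cells were higher in germ-free colon. Lef1, a factor of naive T cells, was at 58.2 and 108 CPM in SPF and 237 and 344 CPM in germ-free T cells (1.95 ± 0.36, edgeR adjusted p = 0.426, DESeq2 adjusted p = 0.00213). S1pr1, the receptor by which T cells leave tissue, was at 102 and 149 CPM against 211 and 447 CPM. The groups did not overlap for either gene. The cells behind these sums differed as well. A cluster led by Lef1 and Tcf7 held 10.8% and 16.1% of the gated SPF T cells and 48.4% and 56.5% of the germ-free ones, and a cluster with Icos, Ctla4 and Il17a held 26.0% and 54.0% against 10.3% and 26.7%. A further cluster, with Gzma, Cd8a, Gzmb and Ccl5 among its leading genes, held 286 gated T cells over all libraries, and its share in each library is not reported here. Levels within the gated class therefore include a different make-up of the class. The part of this make-up in the cytotoxic genes was not tested. Of the cell cycle list, 7 of 13 members measured in T cells were lower at the unadjusted threshold, with a median of -1.51, and 8 of 13 without germ-free 1.

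**Figure D3:**
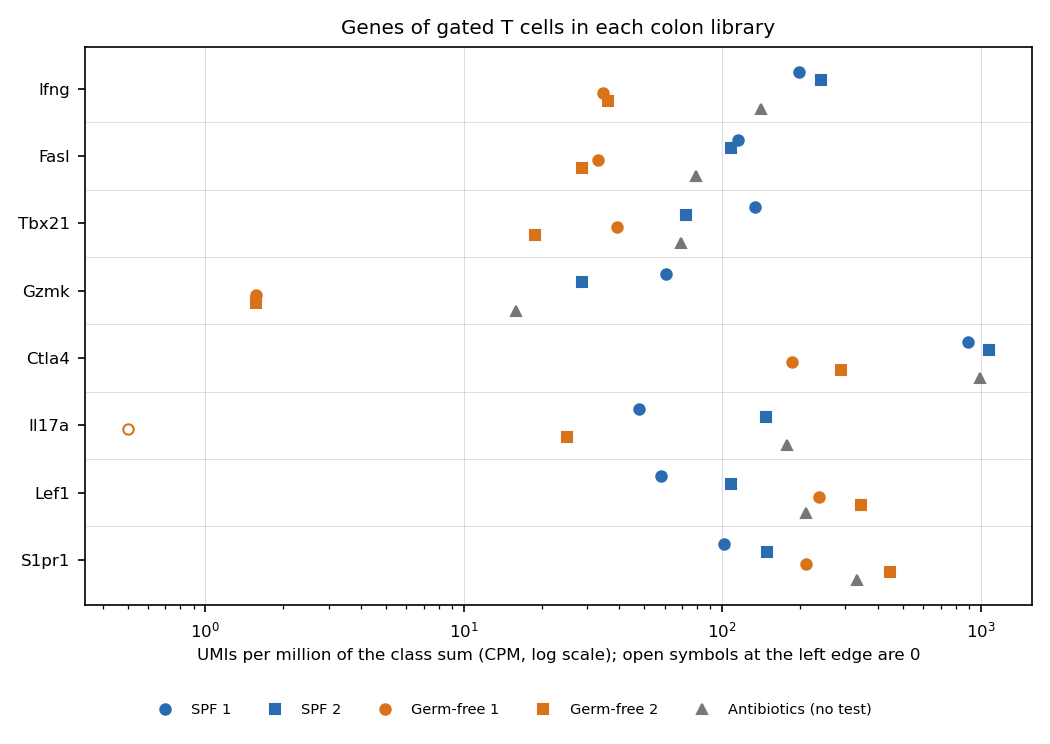
Level in CPM of the summed T cells, on a log scale, for 8 genes in each library, with SPF in blue, germ-free in orange and the untested antibiotics library in grey. Ifng, Fasl, Tbx21, Gzmk and Ctla4 lie lower in both germ-free libraries, and Lef1 and S1pr1 lie higher, while the antibiotics library sits with the SPF libraries for Ctla4 and Il17a.

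B cells from germ-free colon had lower levels of germinal centre and cell cycle genes. Rgs13, a regulator of chemokine signals in germinal centre B cells, had 38 and 50 UMIs in the SPF libraries and 1 and 0 UMIs in the germ-free libraries, although germ-free 2 held the most B cell UMIs of all 4 libraries (387432 to 2663976). S1pr2, the receptor that keeps B cells in the germinal centre, had 17 and 19 UMIs against 0 and 2, and Mef2b, a factor upstream of Bcl6, 21 and 30 against 0 and 9. In all, 5 of 6 measured members of the germinal centre list and 7 of 10 cell cycle genes were lower at the unadjusted threshold, with medians of -2.50 and -1.92. Without germ-free 1 the counts were 5 and 6. The B cells also lay in different clusters. The cluster led by B cell markers held 47.4% and 74.4% of the SPF and 46.0% and 59.3% of the germ-free B cells. A cluster led by hemoglobin genes beside B cell markers held 31.2% and 10.9% against 39.8% and 37.1%. Summed erythroid markers in the B cells were at 8.96 and 1.465 CPM in SPF and 51.6 and 0.375 CPM in germ-free colon. The hemoglobin genes therefore do not describe the cells of this cluster in germ-free 2. The part of the make-up by cluster in the germinal centre genes was not tested. Mki67, the Ki-67 protein of dividing cells, was at 105 and 36.6 CPM against 15.5 and 12.4 CPM, and Top2a at 184 and 53.7 CPM against 18.07 and 18.02 CPM. The SPF libraries differed from each other by more than 2-fold in both genes, and both were above both germ-free libraries. Birc5, which acts in cell division, had 25 and 18 UMIs in SPF B cells and 0 in both germ-free libraries, which allows up to 7.74 and 1.13 CPM. After correction no gene passed, 497 were under the unadjusted threshold, and DESeq2 called 1.

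Other genes of the B cells differed in both directions at that threshold. Ccr6, the chemokine receptor that draws B cells to gut lymphoid follicles, was at 71.7 and 74.2 CPM in SPF and 43.9 and 22.5 CPM in germ-free B cells (-1.24 ± 0.35). Ahr, the receptor for microbial and dietary aromatic compounds, was at 71.7 and 112 CPM against 56.8 and 41.7 CPM (-0.89 ± 0.30). Egr2, induced by the antigen receptor, was at 33.3 and 41.0 CPM against 12.9 and 10.1 CPM (-1.69 ± 0.38). Abcg1, a cholesterol exporter, was at 61.4 and 50.3 CPM against 178 and 131 CPM (1.56 ± 0.27), and Cd14, the co-receptor for bacterial lipopolysaccharide, at 25.6 and 19.5 CPM against 56.8 and 61.9 CPM (1.56 ± 0.31). The edgeR adjusted p of these 5 genes lay at 0.528, 0.690, 0.302, 0.272 and 0.272. In the antibiotics library Abcg1 was at 50.6 CPM and Cd14 at 14.3 CPM, both near or below the SPF values. Summed monocyte markers in the B cells were at 900 and 1007 CPM in SPF against 638 and 781 CPM. Summed resident macrophage markers there were at 206 and 178 CPM against 359 and 148 CPM. The monocyte sum is not a measure of monocyte RNA alone, being at 875 and 826 CPM in SPF T cells as well. The part of RNA of other cells in the level of Cd14 was not tested.

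**Figure D4:**
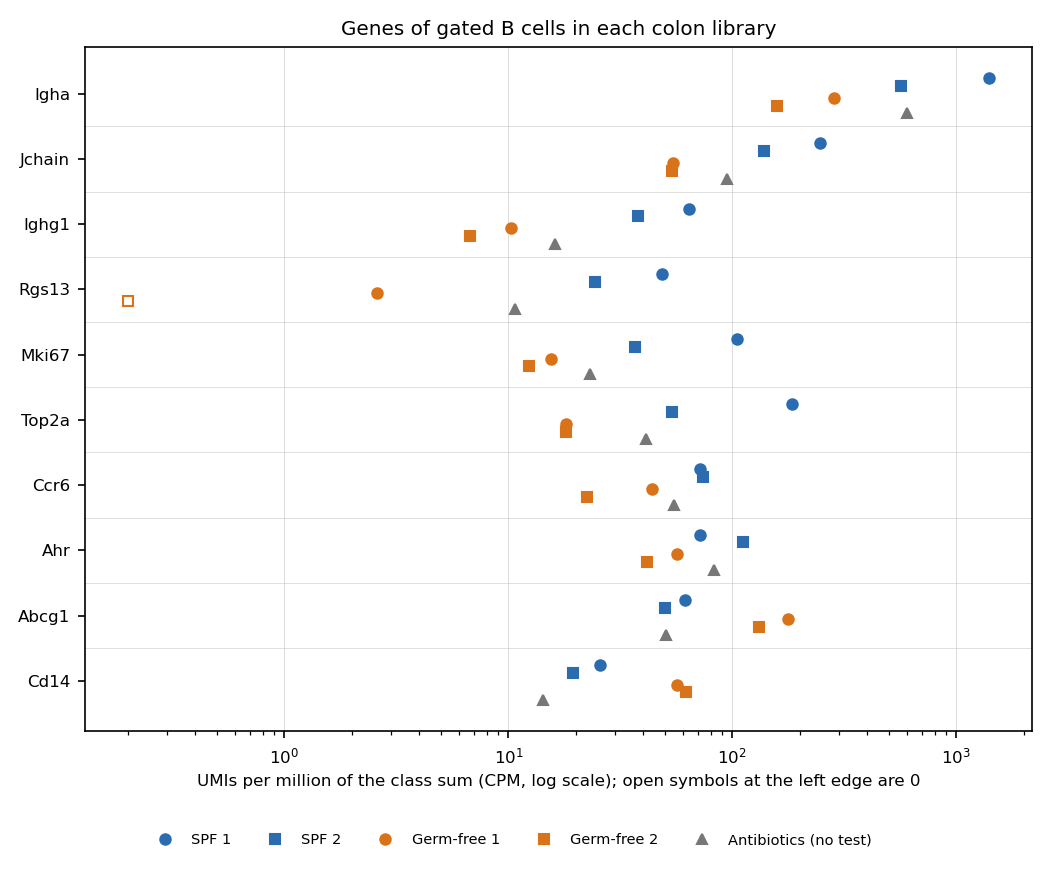
Level in CPM of the summed B cells, on a log scale, for 10 genes in each library, with SPF in blue, germ-free in orange and the untested antibiotics library in grey. Rgs13, Mki67, Top2a and Ighg1 lie lower in both germ-free libraries and Abcg1 and Cd14 higher, and the open symbol for Rgs13 is a count of 0.

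Plasma cells made mostly IgA in both groups. Within plasma cells, Igha, the IgA heavy chain, took 95.1% and 99.8% of the heavy chain UMIs in SPF and 98.8% and 90.6% in germ-free colon, the main isotype in all 4 libraries. Ighg1 took 9.24% in germ-free 2 and 0.947% in germ-free 1 against 0.306% and 0.000386% in SPF. Ighg2c, an isotype that interferon-gamma favours, took 1.24% and 0.0324% in SPF and had 0 UMIs in both germ-free libraries, which allows up to 0.00185% of 161820 and 0.0100% of 29970 heavy chain UMIs. Plasma cells express 1 heavy chain each at very high level, and with 14 plasma cells in germ-free 2 a few cells set its shares. No test was run on plasma cells, because that class had fewer than 20 cells in 1 library.

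Outside the antibody-making cells Igha was lower in both germ-free libraries in most classes. In T cells Igha was at 3414 and 360 CPM in SPF and 157 and 47.1 CPM in germ-free libraries, and in type 2 dendritic cells at 524 and 223 CPM against 129 and 17.9 CPM. Most classes kept the order SPF 1, SPF 2, germ-free 1, germ-free 2, as did epithelial cells, with 463, 291, 90.6 and 15.7 CPM. Resident macrophages of germ-free 2 (3388 CPM), neutrophils of germ-free 1 (9776 CPM) and eosinophils, where SPF 2 was above SPF 1, were exceptions. Igha in gated B cells, at 1400 and 564 CPM against 284 and 158 CPM (-2.11 ± 0.43, edgeR adjusted p = 0.272), has the same order. The part of free RNA in these levels was not tested.

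**Figure D5:**
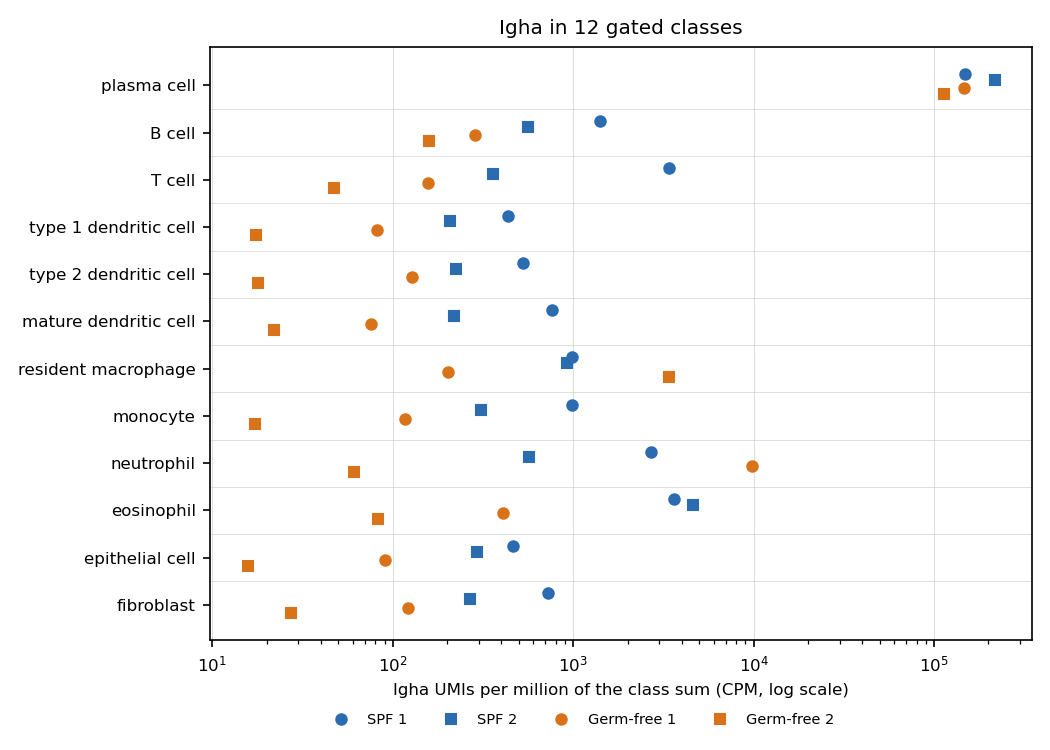
Igha level in CPM of the class sum, on a log scale, in 12 gated classes of each library, with SPF in blue and germ-free in orange. Plasma cells stand above all other classes with 112900 CPM or more, and most other classes keep the order SPF 1, SPF 2, germ-free 1, germ-free 2.

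Resident macrophages, the class gated by complement C1q genes and Mrc1, had no gene past correction, 216 under the unadjusted threshold and 5 called by DESeq2. Cxcl9, a chemokine induced by interferon-gamma, was at 251 and 298 CPM in SPF and 59.8 and 67.8 CPM in germ-free macrophages. Both replicates of each group were close (-2.03 ± 0.29, edgeR adjusted p = 0.363), DESeq2 called the gene with an adjusted p of 0.000318, and the antibiotics library was at 78.7 CPM, on the germ-free side. Gbp2, a GTPase that attacks vacuoles of pathogens, was at 119 and 84.6 CPM against 36.5 and 40.0 CPM. Vdr, the vitamin D receptor, was at 47.9 and 40.7 CPM against 9.14 and 13.6 CPM (-1.88 ± 0.36), with 13.1 CPM under antibiotics. Ccl8, a chemokine for monocytes and T cells, was at 80.8 and 182 CPM against 37.4 and 15.7 CPM.

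Some macrophage genes were higher without microbes at the unadjusted threshold and also differed by library number. Cd163, the scavenger receptor for hemoglobin, was at 26.8 and 3.30 CPM in SPF and 158 and 25.0 CPM in germ-free macrophages, so that the groups overlapped although each germ-free library exceeded the SPF library of its number. Gas6, a ligand that bridges dying cells to macrophages, was at 27.6 and 20.9 CPM against 93.9 and 29.99 CPM. The cluster with the most gated macrophages over all libraries, led by their own markers, took 81.9% of this class in germ-free 1 and 39.6% to 48.0% in the other 3 libraries. Another cluster, with Ly6i, Mmp14 and Ifi205 as leading genes, took 41.7% and 16% in SPF and 7.44% and 26.7% in germ-free colon. In SPF 1 it was the larger of these clusters. The part of this make-up in the levels of the class was not tested. Summed monocyte markers within the class were 1270 and 499 CPM in SPF and 419 and 413 CPM in germ-free colon.

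Monocytes were few in germ-free colon, with 24 and 67 cells against 345 and 197, so their germ-free sums rest on 144608 and 582914 UMIs. Within them Saa3, an acute phase protein of myeloid cells, was at 105 and 107 CPM in SPF and 34.6 and 12.01 CPM in germ-free colon (-2.44 ± 0.51, edgeR adjusted p = 1.00). Gpr35, a receptor for metabolites of the gut, was at 124 and 143 CPM against 48.4 and 58.3 CPM, and Irf7 at 226 and 191 CPM against 76.1 and 70.3 CPM. Oasl2 had 210 and 112 UMIs in the SPF libraries and 2 and 9 in the germ-free libraries, and Usp18, which curbs interferon signals, had 83 and 26 against 0 in both. For Usp18 the counts of 0 allow up to 20.7 and 5.15 CPM, beside 37.8 and 14.6 CPM in SPF. B2m was at 4411 and 4525 CPM against 2151 and 2239 CPM. Areg, a growth factor for epithelium, was higher, with 42.8 and 61.6 CPM against 208 and 106 CPM. None of 7215 genes passed correction, 233 were under the unadjusted threshold and DESeq2 called 1. With clusters in place of gates 4 passed, among them Saa3 (edgeR adjusted p = 0.0441). That fit rests on 179 and 199 SPF and 8 and 64 germ-free monocytes, germ-free 1 being under the 20 cells required of the gated classes. The cluster led by monocyte markers held 48.7% and 90.9% of the gated monocytes in SPF and 29.2% and 77.6% in germ-free colon. A cluster named as resident macrophages held 38.55% and 5.584% against 37.5% and 8.955%. Summed resident macrophage markers in the class were at 729 and 412 CPM in SPF against 1058 and 235 CPM. Summed epithelial markers were at 615.5 CPM in germ-free 1 and at most 111 CPM elsewhere. The part of this make-up in the levels above was not tested.

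The germ-free effect was also tested for a difference between resident macrophages and monocytes of the same libraries. It differed for 4 of 8416 genes (0.0475%, edgeR, with the library as a term), which were S100a8, S100a9, Fn1 and Bc1, each less raised or more lowered in macrophages than in monocytes. Fn1 is a marker of the monocyte gate and S100a8 and S100a9 are markers of the neutrophil gate. In monocytes S100a9 was at 25.5 and 3.36 CPM in SPF and 0 and 271 CPM in germ-free colon, so that 1 germ-free library held nearly all of it. Without the library term, 0 genes passed, 137 being under the unadjusted threshold. Between B cells and T cells the effect differed for 0% of 9169 genes after correction, with 449 under the unadjusted threshold. DESeq2 was not run for these differences.

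Mature dendritic cells, like type 2 dendritic cells, did not share the lower counts of type I interferon genes, and 4 of 9 members of the inflammatory cytokine and chemokine list were higher in them at the unadjusted threshold (3 without germ-free 1). Ccl5, which draws T cells and other leukocytes, was at 733 and 552 CPM in SPF and 2437 and 3457 CPM in germ-free mature dendritic cells. Both germ-free libraries were more than 3-fold above both SPF libraries (2.35 ± 0.28, edgeR adjusted p = 0.193), and DESeq2 called the gene with an adjusted p of 2.2e-09. Ccl4, a related chemokine, was at 141 and 90.5 CPM against 319 and 728 CPM (2.40 ± 0.44, edgeR adjusted p = 0.571, DESeq2 adjusted p = 0.00274). The antibiotics library lay between or above, with 1483 CPM for Ccl5 and 759 CPM for Ccl4. Type 2 dendritic cells had Ccl5 at 53.0 and 51.1 CPM against 109 and 541 CPM. In T cells, where Ccl5 is a cytotoxic gene of the list, its fold change was below 0, as for all members of that list.

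Other genes of the mature dendritic cells differed in both directions, and among those with larger differences were Lyz1 and immunoglobulin genes. Lyz1, a lysozyme gene, had 59 and 26 UMIs in SPF and 0 and 3 in germ-free colon. In gated epithelial cells Lyz1 was at 4.99 and 0 CPM in SPF and 0.893 and 2.45 CPM in germ-free colon, SPF 2 holding 18 such cells. A cluster named as resident macrophages had Lyz1 among its leading genes, and the source of the transcript was not tested. Of the immunoglobulin constant chains 3 of 4 were lower, with a median of -3.39. The gated cells were spread over clusters unevenly, a cluster led by Ccl17 and interferon genes such as Ifit1 holding 10% and 45% of them in SPF and 19.4% and 28.5% in germ-free colon. Further genes were Aldh1a2, the enzyme that makes retinoic acid for gut homing, at 24.4 and 27.3 CPM in SPF and 306 and 50.4 CPM in germ-free colon, and Cd36, a scavenger receptor, at 12.2 and 15.4 CPM against 46.0 and 54.2 CPM. Aldh1a2 was far higher in germ-free 1 than in germ-free 2, and in SPF it rested on 4 and 16 UMIs. H2-DMb2, a chain of the DM complex that loads MHC class II, was lower, at 220 and 330 CPM against 108 and 142 CPM. None of 4580 genes passed correction, 300 were under the unadjusted threshold and DESeq2 called 2. The class sums were small, from 163755 UMIs over 20 cells in SPF 1 to 1586221 UMIs over 116 cells in germ-free 2.

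Type 1 dendritic cells, which present antigen to CD8 T cells, had 394 genes under the unadjusted threshold. DESeq2 called 40, all 40 higher in germ-free colon. Of the 394 genes 238 were higher, and 74 of these encode ribosomal proteins, a set chosen after its values were seen. Socs3, a feedback inhibitor of cytokine signals, was at 23.9 and 33.6 CPM in SPF and 86.3 and 64.2 CPM in germ-free cells (1.49 ± 0.31, edgeR adjusted p = 0.219). Tnf, the inflammatory cytokine, was at 6.83 and 11.8 CPM against 22.3 and 28.7 CPM, and reached 85.5 CPM under antibiotics. Nfkbia, the inhibitor that NF-kB induces, was at 671 and 1091 CPM against 1103 and 1338 CPM, and Nfe2l2, the factor of the oxidative stress response, at 253 and 263 CPM against 397 and 344 CPM. The groups did not overlap for these 4 genes, although for Nfkbia the gap between SPF 2 and germ-free 1 was small. Of the cell cycle list, 5 of 14 were lower, and 3 without germ-free 1. In type 2 dendritic cells 210 genes were under the unadjusted threshold and DESeq2 called 0. There Cxcl1, a chemokine for neutrophils, was at 35.8 and 25.1 CPM against 50.3 and 95.3 CPM (1.45 ± 0.37).

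Neutrophils from germ-free colon had lower levels of single genes such as Il23a, although the inflammatory cytokine list as a whole had 1 of 10 members lower and a median of -0.08. Il23a, the subunit of interleukin-23 that sustains type 17 responses, was at 315 and 295 CPM in SPF and 86.0 and 77.2 CPM in germ-free neutrophils. The replicates were close in both groups (-1.84 ± 0.36, edgeR adjusted p = 0.692), and the antibiotics library was at 101 CPM, on the germ-free side. Clec4n, the fungal sensor Dectin-2, was at 324 and 384 CPM against 140 and 142 CPM, and Irf7 had 21 and 34 UMIs against 1 and 9. Ffar2, the receptor for short-chain fatty acids made by gut bacteria, was at 116 and 53.6 CPM against 21.5 and 24.4 CPM, on 2 and 12 UMIs in the germ-free libraries. Ngp and Ltf, proteins of granules made in immature neutrophils, were higher mainly in germ-free 2, with Ltf at 51.8 and 26.8 CPM against 43.0 and 264 CPM and Ngp with 3 and 0 UMIs against 8 and 374. Summed plasma cell markers in the class were 630 and 148 CPM in SPF and 3054 and 54.8 CPM in germ-free neutrophils. After correction no gene passed, 101 were under the unadjusted threshold, and DESeq2 called 1.

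Eosinophils gave the only gene that passed the correction in any class, and it was Igkc, the antibody kappa chain, which eosinophils are not known to make. It was at 5284 and 6663 CPM in SPF and 214 and 72.1 CPM in germ-free eosinophils, which fell by 5.51 ± 0.55 on the log2 scale (edgeR adjusted p = 0.00438, 1 of 1402 genes or 0.0713%). Lower genes made up 1.28% and higher genes 1.93% at the unadjusted threshold, 45 in all, and DESeq2 called 2. Summed plasma cell markers in the same cells were 563 and 944 CPM against 136 and 51.5 CPM, and 4 of the 7 were at 0 in every library. Their part in the level of Igkc was not tested. Igha, the IgA chain, was at 3621 and 4590 CPM against 408 and 82.4 CPM (-4.21 ± 0.64, edgeR adjusted p = 0.0654, DESeq2 adjusted p = 1.01e-08). With clusters in place of gates the log2 fold change of Igkc was -2.38 (adjusted p = 0.127) and the 1 gene called was Igha (adjusted p = 0.00784), and with the stricter cell filter that of Igkc was -5.28 (adjusted p = 1). Eosinophil sums held 37283 to 101750 UMIs over 37 to 82 cells, and no interferon list member passed the count filter there. Il4, the cytokine of type 2 immunity, was at 295 and 403 CPM against 175 and 61.8 CPM (-1.74 ± 0.56, edgeR adjusted p = 0.999).

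Fibroblasts, the stromal class gated by collagen genes, had 391 genes under the unadjusted threshold and 3 called by DESeq2, which included B2m and H2-K1. B2m was at 3932 and 2876 CPM in SPF and 1159 and 1172 CPM in germ-free fibroblasts (-1.48 ± 0.29, edgeR adjusted p = 0.551, DESeq2 adjusted p = 0.024). H2-K1, an MHC class I heavy chain, was at 1845 and 1635 CPM against 452 and 680 CPM (-1.55 ± 0.30, with the same adjusted p values). Both were chosen after their values were seen, and both encode parts of the complex that shows peptides to CD8 T cells. Irgm2, an interferon-induced GTPase, had 35 and 35 UMIs against 4 and 11, and Igtp, its relative, 17 and 17 against 2 and 8. The annotated genes Irgm2 and Igtp overlap on chromosome 11 (58199618 to 58222782 and 58199556 to 58207591, GRCm38), so reads between them may be shared and each value is uncertain.

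Genes of other cell types also appeared among the lower genes of fibroblasts. Il1b, a cytokine of myeloid cells, had 146 and 411 UMIs in SPF and 2 and 130 in germ-free fibroblasts, and Il1rn, the inhibitor of the same receptor, 98 and 142 against 2 and 50. Lgmn, a lysosomal protease, was at 513 and 633 CPM against 224 and 261 CPM. Summed monocyte markers in the fibroblasts were 2532 and 3557 CPM in SPF against 1550 and 2012 CPM in germ-free colon. None of the 8 was at 0 in all libraries. These 8 include the matrix gene Fn1, so the sum is not a measure of monocyte RNA alone. Resident macrophage markers were at 141 and 157 CPM against 151 and 103 CPM, and neutrophil markers at 45.3 and 49.5 CPM against 0 and 48.3 CPM. The part of RNA of monocytes or other cells in Il1b, Il1rn and Lgmn was not tested.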

How the data were processed

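Droplet-based single-cell RNA libraries of sorted colon cells were used. The authors deposited whole-number UMI counts per gene and barcode, made with Cell Ranger and STAR 2.5.1b on mm10 according to the submitters' processing notes (matrix header software 3.0.2), with no normalization. Barcodes with at most 15% mitochondrial UMIs and at least 200 genes were kept. A cell joined a class when at least 3 of its markers (2 for eosinophils) were on, a marker being on at 2 times its pooled mean level, with a lead over the next class of 0.1 of the list. Doublets were not removed, because Scrublet marked 0, 6, 7 and 5 barcodes, under 0.5%. UMIs were summed per library and class with at least 20 cells in every library, which held for 10 of 19 marker classes, and tested with edgeR 4.0.16 (quasi-likelihood test, TMM, Benjamini-Hochberg, false discovery rate 0.05) in R 4.3.3. The difference between classes had the library as a term, and shares were tested on cell numbers. DESeq2 1.42.0, other filters, clusters (scanpy 1.11.5) and leaving out each library were alternatives, and the fits were tested on simulated data. CPM are UMIs per 1000000 UMIs of the sum, fold changes are log2, germ-free minus SPF, and ± is the SE. Called genes and up to 4 members of each of 26 lists with the smallest p were named. Other genes named, such as Lef1, Tnf, B2m and H2-K1, and values without germ-free 1 were chosen after their values were seen. The members and lists were chosen with earlier results of these data known, and 5 list genes were not analysed here. Results of some list genes are not reported here. Depth was 13630190 to 20702487 UMIs per library. Intervals and limits cover counting error only, a count of 0 being read as up to 3 counts. The lists reported are those named in the results. The per-cell Poisson test of the study was not used, since cells are not replicates.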

Additional observations from a re-analysis of the deposited data

Results flagged for a closer look

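The germ-free effect differed between resident macrophages and monocytes for 4 genes, by a test of the difference itself (edgeR, each library being a term of the fit). The difference of the log2 fold changes, macrophage minus monocyte, was -5.37 for S100a9 (adjusted p = 0.0352), -2.97 for Bc1 (adjusted p = 0.0352), -2.11 for Fn1 (adjusted p = 0.0371) and -5.76 for S100a8 (adjusted p = 0.0371). S100a8 in monocytes was at 13.7 and 3.36 CPM in SPF and 0 and 161 CPM in germ-free colon, and in macrophages at 35.4 and 0 CPM against 0.831 and 5.00 CPM. Fn1, a gate marker of the monocytes, was at 529 and 745 CPM against 1535 and 1251 CPM in monocytes and at 46.7 and 82.4 CPM against 35.7 and 28.6 CPM in macrophages. Bc1, a neuronal noncoding RNA, was at 46.4 and 12.3 CPM against 297 and 30.9 CPM in monocytes and at 85.5 and 24.2 CPM against 73.9 and 6.43 CPM in macrophages.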

How the results depend on the processing

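The counts of genes past the correction depended on the setting, and the cause was not tested. DESeq2 called 17 genes in library sums (7 higher, 10 lower), 1 in B cells, 27 in T cells, 40 in type 1 and 2 in mature dendritic cells, 1 in monocytes, 5 in resident macrophages, 1 in neutrophils, 2 in eosinophils and 3 in fibroblasts. Without a filter on low counts edgeR called 86 genes in B cells, 179 in T cells, 81, 34 and 51 in type 1, type 2 and mature dendritic cells, 24 in monocytes, 71 in macrophages, 18 in neutrophils, 5 in eosinophils and 64 in fibroblasts. With clusters in place of gates it called 4 in monocytes, 22 for macrophages against monocytes and 7 for B cells against T cells. In the fits with monocytes germ-free 1 then held 8 of these cells. The stricter cell filter left 0 in eosinophils, and the fit without the library term left 0 for macrophages against monocytes. Leaving out 1 library in turn gave 0 calls in library sums and in shares, and 0 to 146 in B cells (highest without SPF 2, lowest without germ-free 2), 0 to 18 in T cells (highest without germ-free 2), 0 to 46 in type 1 dendritic cells (highest without germ-free 1), 3 to 88 in type 2 and 2 to 89 in mature dendritic cells (both highest without SPF 1), 20 to 43 in monocytes (highest without germ-free 2), 0 to 74 in macrophages (highest without germ-free 2), 10 to 30 in neutrophils (highest without SPF 1), 2 to 38 in eosinophils (highest without germ-free 1), 0 to 90 in fibroblasts (highest without germ-free 2), 14 to 40 for macrophages against monocytes (highest without germ-free 2) and 1 to 99 for B cells against T cells (highest without SPF 2). In these fits the lone library is assumed to vary like the other group. The named values that follow were mostly chosen for a small p or after being seen. Their alternatives refit much the same libraries, so a kept direction was likely beforehand and is no independent support. Of 637 alternatives of 68 named values, 493 stayed on their side of the threshold, 142 passed it with the same direction, 0 reversed and 2 no longer passed, both Igkc in eosinophils (-2.38 with clusters, -5.28 with the stricter cell filter). The share of monocytes kept its direction in all alternatives run, with adjusted p from 0.155 to 0.836.

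With the replicate number of the titles as a block, 637 genes were called in library sums (513 higher, 124 lower), 144 in B cells, 384 in T cells, 98 in type 1 and 82 in type 2 dendritic cells, 2 in monocytes, 31 in neutrophils and 1 in fibroblasts. The differences between the libraries numbered 1 and 2 correlated across genes between the groups, with r = 0.787 in library sums and 0.0342 to 0.526 in the classes, genes not being independent replicates. The labels do not say that a number marks a shared batch or day, and with 2 pairs the libraries share only a number.

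Depth was lowest in eosinophils, with 37283 to 101750 UMIs per sum and 1402 genes tested, followed by neutrophils, with 92981 to 492355 UMIs and 2724 genes. Germ-free 1 had 144608 UMIs of monocytes.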

Other observations

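Genes of ribosomal proteins, chosen after their values were seen, took 16.8% and 15.5% of the UMIs in SPF and 21.7% and 22.9% in germ-free library sums. At an unadjusted p under 0.05, 74 of 82 were higher in type 1 dendritic cells, 67 of 82 in T cells, 47 of 82 in fibroblasts and 1 of 82 in resident macrophages, whereas neutrophils had 0 of 81 higher and 1 lower.

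In epithelial cells, which carry no CD11b and had too few cells in 1 library for a test, Lypd8, a protein that keeps flagellated bacteria off the colon surface, was at 4148 and 6056 CPM in SPF and 869 and 1213 CPM in germ-free colon. Muc2, the main mucin of the colon, was at 2693 and 1654 CPM against 4732 and 2048 CPM. Reg3b, an antimicrobial lectin, was at 564 and 0 CPM against 43.8 and 0 CPM, so that it was detected in the libraries numbered 1 of both groups. The SPF 2 values of these genes are weak, resting on 18 gated cells with a median of 1096.5 UMIs. The medians of the other libraries were 21541 to 28488 UMIs.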
